A study of Rattus norvegicus with 24 samples.

Results

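The central nucleus of the amygdala (CEA) was compared between rats given sham electroacupuncture around a liver operation (HT + SEA, here SEA) and normal control rats (NC). The members were the raw-count columns of CEA SEA libraries 1 to 3 and CEA NC libraries 1 to 3, which made 6 of the 24 mRNA libraries of the series. All rats were young male Sprague-Dawley animals. NC rats had no operation and were held in the restraint device for as long as the others. SEA rats had part of the left liver lobe removed under isoflurane, and needles were placed on one side at the acupoints Zusanli (ST 36) and Sanyinjiao (SP 6) while the animals were awake and restrained, a day before the operation and directly after it, with no connection to the stimulator. Brains were taken a day after the last session. The operation, the anaesthetic and the needling therefore all separate SEA from NC and cannot be told apart in this comparison. The series also holds rats with the operation alone (HT), rats with the operation and stimulated needles (HT + EA, here EA), and the paraventricular nucleus of the hypothalamus (PVN) from all 4 groups. The study's methods state that the samples came from different animals of 1 batch, and the labels tie no library to an animal, so the p-values below measure the spread between these libraries.

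The central amygdala is a nucleus made mainly of GABA neurons that receives pain and threat signals and projects to the hypothalamus and brainstem, where it takes part in autonomic and hormonal responses to stress. Its neurons are known for neuropeptides such as enkephalin, dynorphin, somatostatin and corticotropin-releasing hormone, and a well known class carries protein kinase C delta (Prkcd). Immediate early genes such as Fos, Egr1 and Arc are switched on within minutes of neuronal activity, and their mRNA decays within hours. Levels below are in CPM, read counts divided by library size after scaling by the trimmed mean of M values (TMM). Differences are log2 fold changes of SEA minus NC with their standard error (SE), from edgeR's quasi-likelihood fit of 16423 genes that passed the low-count filter. In bulk tissue, fewer cells of a type and less RNA per cell cannot be told apart.

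The NC libraries held 16149607 to 18145421 counts and the SEA libraries 13152772 to 17026144. All 22 genes of the list for central amygdala and GABA neurons passed the filter, and their summed level was 3318 to 4155 CPM in NC and 2972 to 3933 CPM in SEA. Marker levels of neighbouring tissue differed within both groups. The summed level of 14 choroid plexus markers was 1086 CPM in NC 2 and 1784 CPM in SEA 2, against 12.8 to 26.5 CPM in the other 4 libraries. The summed striatal projection neuron markers ranged from 3890 to 6200 CPM in NC and from 2444 to 7017 CPM in SEA. The summed thalamic markers were 152, 402 and 467 CPM in NC and 234, 95.4 and 569 CPM in SEA. Prkcd moved with the thalamic list, with 50.7, 492 and 527 CPM in NC and 154, 45.0 and 525 CPM in SEA. The part of these marker differences in the results below was not tested beyond the left-out libraries and the striatal covariate given here. Whether they came from dissection was not tested. Libraries of the same group correlated no better than libraries of different groups, with a median Pearson correlation over genes of 0.975 within groups and 0.978 between them.

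SEA 3 stood apart at a class I histocompatibility locus on chromosome 20. LOC103690108, a class I histocompatibility antigen gene, had counts of 0, 0 and 0 in the NC libraries and of 0, 4 and 585 in the SEA libraries. A count of 0 allows up to 3 counts, which is 0.165 to 0.186 CPM in the NC libraries. The same gene had 301 to 896 counts in all 6 CEA libraries of the HT and EA groups. In the PVN it had 0, 1 and 1146 counts in SEA and 0, 3 and 0 in NC. LOC100364500, another class I gene of chromosome 20, showed the same split with 1, 3 and 1 counts in CEA NC and 1, 8 and 97 in CEA SEA. At this locus the library labelled SEA 3 thus resembled the HT and EA libraries, and SEA 1 and SEA 2 resembled NC. The label was kept, and whether the library or its animal matches it was not tested, a limit on every SEA value and on the comparisons with HT and EA.

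**Figure D1:**
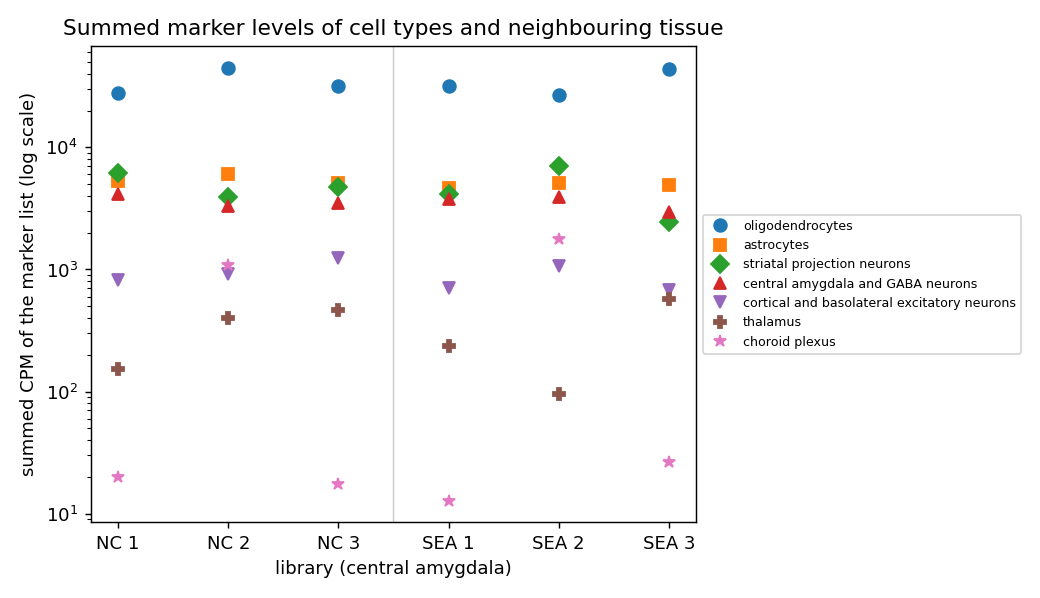
Summed marker levels in CPM on a log axis, one symbol shape per marker list, for the 3 NC and the 3 SEA libraries of the central amygdala. Choroid plexus markers sit at 1086 CPM in NC 2 and 1784 CPM in SEA 2 and at 26.5 CPM or less in the other libraries, while the central amygdala list spans 2972 to 4155 CPM.

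No gene passed the adjusted threshold of 0.05 (0% of 16423 genes, edgeR's quasi-likelihood test with Benjamini-Hochberg adjustment, smallest adjusted p = 0.9995). An unadjusted p under 0.05 was reached by 406 genes, fewer than the 821 that this threshold would pass by its definition if no gene differed. Of these, 187 genes (1.14%) were higher in SEA and 219 (1.33%) were lower. Without TMM factors the split was 290 higher and 148 lower, so the balance of directions over all genes depended on the scaling. The groups did not overlap for 538 genes higher in SEA (3.28%) and 587 genes lower in SEA (3.57%). The median log2 fold change of all genes tested was -0.01. DESeq2 on the same genes called 11 (0.067%) and put 320 at an unadjusted p under 0.05. The sections below therefore give levels and differences without a call by the main test, and the share of all genes at the unadjusted threshold is the background for each list.

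The 11 genes that DESeq2 called were LOC100910446, Fads1, Egr2, Nr4a1, Nat8f3, Slc7a1, Fads2, Sult1a1, LOC103689941, a snoRNA gene of family RF00405 and an assembled transcript without a symbol. Of these, 5 were higher and 6 lower in SEA, and none had an edgeR adjusted p below 0.9995. The lists below start from the groups these genes belong to. The counts of the immediate early, fatty acid and glucocorticoid lists include the called genes Egr2, Nr4a1, Fads1, Fads2 and Sult1a1. The choice of these lists and their counts thus rest on the same values.

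Immediate early genes lay lower in SEA than in NC. All 18 tested members of the list had a log2 fold change below 0, with a median of -0.52 against -0.01 over all genes, and 7 of the 18 were lower at an unadjusted p under 0.05 while none was higher. The background was 1.33% of genes lower. Egr2, a zinc finger transcription factor of the early growth response family, had 8.77, 20.5 and 14.3 CPM in NC and 3.17, 5.11 and 2.41 CPM in SEA. The means were 14.5 ± 5.88 and 3.56 ± 1.39 CPM (SD, n = 3 each). The groups did not overlap, and every SEA library lay below the lowest NC library. The log2 fold change was -2.02 ± 0.39 (SE), with an unadjusted p of 0.00134 in edgeR, an edgeR adjusted p of 0.9995 and a DESeq2 adjusted p of 0.00179. Nr4a1, an orphan nuclear receptor induced by activity and by stress hormones, had 44.4, 80.4 and 64.5 CPM in NC and 29.7, 32.1 and 26.5 CPM in SEA. The SEA libraries were close together and all below the NC range. Its log2 fold change was -1.10 ± 0.21 (SE), with a DESeq2 adjusted p of 0.00707.

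The promoters of these genes are shown because Egr2 and Nr4a1 lead the list and because cAMP and calcium signals reach such genes through short elements near the start site. Both sequences are from RefSeq on build GRCr8, run from 250 bases before to 50 bases after the annotated start, and are written 5′ to 3′ on the gene's strand. Egr2 lies on the minus strand at chr20:21054392-21054691 and Nr4a1 on the plus strand at chr7:134259888-134260187. Capitals mark the CArG box, the binding sequence of serum response factor, and the half-site of the cAMP response element, TGACG, searched on both strands and read here as its reverse complement CGTCA.
Egr2: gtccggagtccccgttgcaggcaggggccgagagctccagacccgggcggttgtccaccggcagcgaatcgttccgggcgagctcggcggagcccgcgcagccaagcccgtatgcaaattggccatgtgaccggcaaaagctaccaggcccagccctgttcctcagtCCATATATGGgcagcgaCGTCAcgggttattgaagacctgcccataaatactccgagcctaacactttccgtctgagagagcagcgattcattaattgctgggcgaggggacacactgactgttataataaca
Nr4a1: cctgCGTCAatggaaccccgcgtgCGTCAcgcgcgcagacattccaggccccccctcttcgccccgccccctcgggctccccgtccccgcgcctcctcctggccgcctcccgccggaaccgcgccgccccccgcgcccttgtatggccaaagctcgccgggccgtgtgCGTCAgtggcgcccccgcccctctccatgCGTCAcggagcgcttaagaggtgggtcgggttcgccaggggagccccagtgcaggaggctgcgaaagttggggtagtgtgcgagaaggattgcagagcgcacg
Egr2 held a CArG box that started 83 bases before the start site and a half-site 66 bases before it. Nr4a1 held 4 half-sites, at 246, 226, 82 and 53 bases before the start, and no CArG box. Of the 13 list members with a promoter in the table, 9 held the half-site, against 21.2% of all 33469 promoters of that length. The half-site was as frequent in the sterol list described below, where 9 of 13 promoters held it. A CArG box was found in 2 of the 13, Egr1 and Egr2, against 1.64%. The full element, TGACGTCA, which contains the half-site on both strands, was found in 3 of the 13, Btg2, Dusp1 and Ier2, against 1.83%. These matches describe letters in a window and not bound sites.

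Arc, which encodes a synaptic scaffold protein made on demand at active synapses, had 62.4, 105 and 92.7 CPM in NC and 40.7, 61.4 and 26.8 CPM in SEA, with a log2 fold change of -1.01 ± 0.32. The groups did not overlap, but NC 1 and SEA 2 lay close together. Egr1 had 132, 125 and 124 CPM in NC and 69.4, 95.5 and 47.4 CPM in SEA, with a log2 fold change of -0.84 ± 0.23. Egr4 had a log2 fold change of -0.88 ± 0.32, Nr4a3 of -0.69 ± 0.23 and Junb of -0.52 ± 0.18, and Junb alone of these 3 overlapped between groups. Fos, the classical activity marker, had 10.2, 21.8 and 18.0 CPM in NC and 7.27, 6.75 and 13.9 CPM in SEA. SEA 3 lay above NC 1, and the log2 fold change of -0.85 ± 0.37 had an unadjusted p of 0.0559. Dusp5, a phosphatase of MAP kinases that is outside the list, had 4.5, 4.64 and 6.4 CPM in NC and 2.61, 2.64 and 2.11 CPM in SEA, a log2 fold change of -1.07 ± 0.22.

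With each library left out in turn, 16 to 18 of the 18 members kept a log2 fold change below 0. The number at the unadjusted threshold depended on single libraries. It was 11 without NC 1, 3 without NC 2, 4 without NC 3, 3 without SEA 1, 8 without SEA 2 and 6 without SEA 3, and all of these members were lower in SEA. Without both libraries that held choroid plexus transcripts it was 9. Markers of cortical and basolateral excitatory neurons, cells that border the nucleus and express many of these genes, also lay lower in SEA. All 15 had a log2 fold change below 0, with a median of -0.44 and none at the unadjusted threshold, and their summed level was 822, 919 and 1237 CPM in NC and 703, 1073 and 678 CPM in SEA. Without NC 3, 9 of the 15 were below 0 and the median was -0.05. Their part in the lower levels of immediate early genes was not tested.

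**Figure D2:**
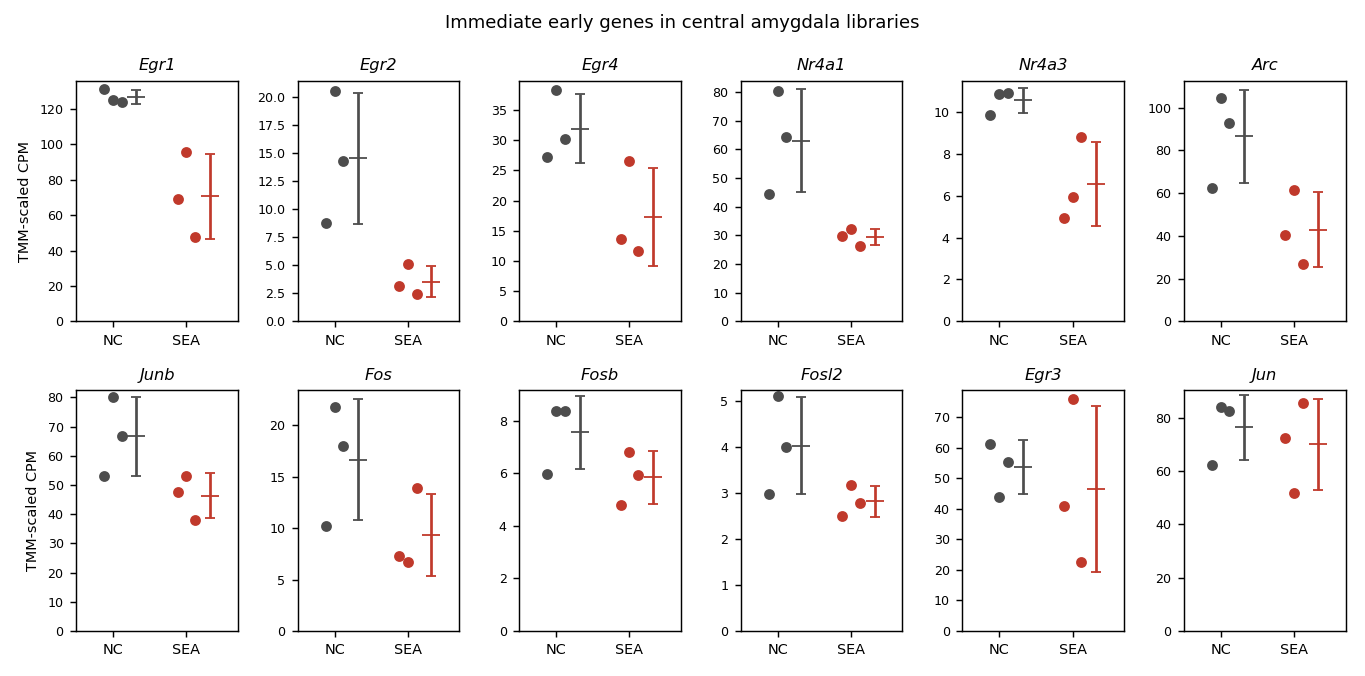
Levels of 12 immediate early genes in TMM-scaled CPM from 0, one point per library, for 3 NC and 3 SEA libraries of the central amygdala; bars give the mean and SD. Egr1, Egr2, Egr4, Nr4a1, Nr4a3 and Arc show no overlap between groups, while Junb, Fos, Fosb, Fosl2, Egr3 and Jun overlap.

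The activity-regulated microRNA locus on chromosome 10, chosen after its values were seen, lay lower in SEA as well. Mir132 had counts of 43, 48 and 33 in NC and 21, 14 and 8 in SEA, a log2 fold change of -1.39 ± 0.33 with an unadjusted p of 0.0043 and an edgeR adjusted p of 0.9995. The neighbouring Mir212 had counts of 16, 37 and 17 in NC and 8, 9 and 4 in SEA, a log2 fold change of -1.59 ± 0.46. The groups did not overlap for either gene, and the counts are low. These are mRNA libraries, so the reads count transcripts over the gene and do not measure the mature microRNAs of either arm. The study made separate small RNA libraries for microRNAs, which were not analysed here. The mature sequences from RefSeq, build GRCr8, are shown because the 3p arms of the neighbours share a seed (bases 2 to 8, in capitals).
rno-miR-132-3p: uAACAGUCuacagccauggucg
rno-miR-212-3p: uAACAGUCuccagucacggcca
rno-miR-132-5p: aCCGUGGCuuucgauuguuacu
rno-miR-212-5p: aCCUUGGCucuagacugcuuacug
The seed AACAGUC is the same in both 3p arms. The 5p arms carry different seeds, CCGUGGC and CCUUGGC.

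Most tested genes of the fatty acid synthesis and sterol synthesis lists also lay lower in SEA. Of 9 tested members of the fatty acid list, 4 were lower at an unadjusted p under 0.05 and none was higher, with a median log2 fold change of -0.21. Of 19 tested members of the sterol list, 7 were lower and none was higher, with a median of -0.21 and 18 of the 19 below 0. The background was 1.33% of genes lower, and 48.2% of all genes tested lay above 0. Fads1, the delta-5 desaturase that makes arachidonic acid, had 208, 247 and 241 CPM in NC and 123, 151 and 143 CPM in SEA. The lowest NC library was well above the highest SEA library, and the log2 fold change was -0.74 ± 0.11 (SE) with an edgeR adjusted p of 0.9995 and a DESeq2 adjusted p of 0.000405. Fads2, the delta-6 desaturase, also on chromosome 1, had 73.6, 85.3 and 79.5 CPM in NC and 48.0, 54.1 and 58.4 CPM in SEA, a log2 fold change of -0.57 ± 0.10. Scd, a stearoyl-CoA desaturase, had 28.2, 42.5 and 39.6 CPM in NC and 14.0, 14.3 and 28.8 CPM in SEA. SEA 3 reached the NC range there, and the log2 fold change was -0.96 ± 0.31. Scd2, the abundant brain form, had a log2 fold change of -0.36 ± 0.15. Acly and Srebf1 of the same list differed little, with log2 fold changes of -0.01 ± 0.11 and 0.14 ± 0.17.

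Among sterol genes, Hmgcs1, a cytosolic synthase of the pathway, had 409, 507 and 460 CPM in NC and 293, 276 and 394 CPM in SEA. SEA 3 was again the SEA library nearest to NC, and the log2 fold change was -0.51 ± 0.16. Stard4, a cholesterol transfer protein, had 33.7, 40.2 and 49.3 CPM in NC and 24.8, 31.5 and 30.8 CPM in SEA, a log2 fold change of -0.50 ± 0.16. Mvd, Cyp51, Msmo1, Nsdhl and Sc5d had log2 fold changes of -0.54, -0.44, -0.39, -0.33 and -0.25.

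The sterol count was 6 without NC 1, 1 without NC 2, 1 without NC 3, 0 without SEA 1, 2 without SEA 2 and 9 without SEA 3. It was 0 without both choroid plexus libraries, where the median was -0.08, and 13 with the striatal marker sum as a covariate. The fatty acid count was 5 without NC 1, 2 without NC 2, NC 3, SEA 1 or SEA 2 and 4 without SEA 3. Without NC 2, 1 member was also higher. Without both choroid plexus libraries 2 were lower and 1 was higher, and with the striatal covariate 7 were lower. Some astrocyte markers were lower as well. Of 10 tested markers, 7 had a log2 fold change below 0, 3 were lower at the unadjusted threshold and none was higher. Over all genes tested, 1.33% were lower. The summed level overlapped between groups, with 5274, 6064 and 5076 CPM in NC and 4602, 5102 and 4944 CPM in SEA. Aldh1l1, a folate enzyme used as an astrocyte marker, had 27.8, 29.5 and 23.2 CPM in NC and 17.7, 16.6 and 21.7 CPM in SEA, a log2 fold change of -0.53 ± 0.14. Aqp4, the water channel of astrocyte endfeet, had 706, 881 and 696 CPM in NC and 539, 572 and 680 CPM in SEA, and Gfap had a log2 fold change of -0.66 ± 0.27. The count of lower astrocyte markers was 1 without NC 2, without SEA 1, without both choroid plexus libraries, without TMM factors or with the replicate block. Without SEA 3, 4 were lower and 1 was higher. Whether astrocyte content bears on the lipid genes was not tested.

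Clock genes differed in both directions. Of 15 tested members, 5 were higher in SEA and 1 was lower at the unadjusted threshold, with a median log2 fold change of 0.03. The background was 1.14% of genes higher. Per3, a period gene, had 32.8, 32.6 and 28.2 CPM in NC and 39.7, 45.0 and 41.7 CPM in SEA. All SEA libraries lay above all NC libraries, with a log2 fold change of 0.43 ± 0.10 and an unadjusted p of 0.00324. Dbp, an output transcription factor of the clock, had 170, 177 and 163 CPM in NC and 217, 265 and 202 CPM in SEA, a log2 fold change of 0.42 ± 0.12. Nr1d1 and Nr1d2, the nuclear receptors that repress Arntl, had log2 fold changes of 0.43 ± 0.12 and 0.31 ± 0.10, and Bhlhe41, a repressor that binds E-boxes, of 0.24 ± 0.07. Cry1, a repressor of the same loop, had 23.6, 22.7 and 25.5 CPM in NC and 18.1, 18.5 and 20.4 CPM in SEA, a log2 fold change of -0.33 ± 0.10. Arntl, the activator of the loop, was at -0.24 ± 0.16 with overlapping groups. The count of members higher in SEA was 4 or 5 when any library was left out, and it was 3 when all 4 CEA groups were fitted together. Without NC 2, 2 members were lower. Without both choroid plexus libraries 2 members were higher and 3 were lower.

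The promoter of Bhlhe41, on the minus strand at chr4:180569306-180569605 of GRCr8, is shown because it holds the E-box CACGTG, the element through which the clock's activator acts, in capitals 48 bases before the start site.
Bhlhe41: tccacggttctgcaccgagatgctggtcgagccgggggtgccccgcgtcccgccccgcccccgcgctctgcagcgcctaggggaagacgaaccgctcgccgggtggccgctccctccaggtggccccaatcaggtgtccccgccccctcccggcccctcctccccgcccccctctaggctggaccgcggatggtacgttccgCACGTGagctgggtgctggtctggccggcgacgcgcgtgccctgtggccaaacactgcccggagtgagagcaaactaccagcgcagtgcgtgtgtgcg
The E-box was found in 4 of the 14 promoters that the table holds for 12 clock genes, those of Bhlhe41, Ciart and Tef and 1 of the 2 of Nr1d1, against 6.42% of all promoters on both strands. Neither an E-box nor a D-box was found for Per3, Dbp or Nr1d2, or in the other promoter of Nr1d1. Ciart and Tef were not among the members that passed the unadjusted threshold. The D-box TTANGTAA, which Dbp binds, was found in 1 of the 14, of Per2, against 2.24%. The sterol element core CACCCCAC, present in 2.7% of all promoters, was found in none of the 13 sterol or 8 fatty acid promoters in the table.

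**Figure D3:**
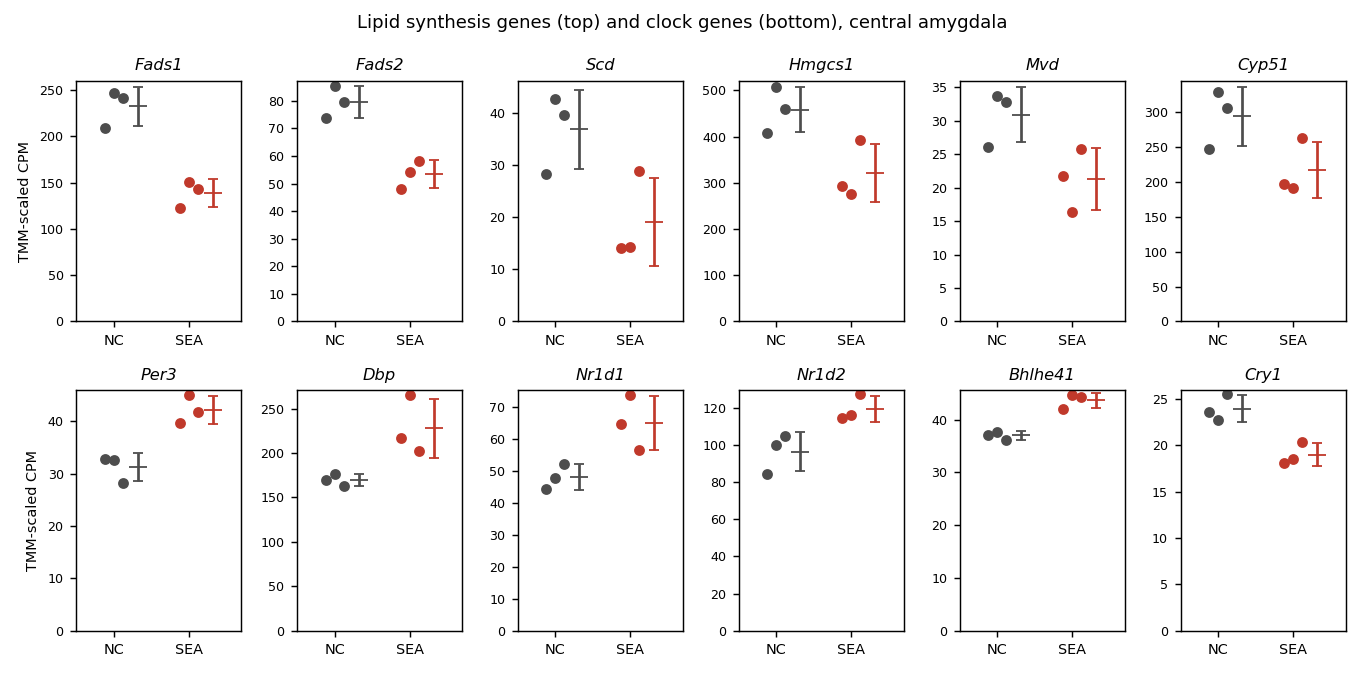
Levels of 6 lipid synthesis genes (top) and 6 clock genes (bottom) in TMM-scaled CPM from 0, one point per library, for 3 NC and 3 SEA libraries of the central amygdala; bars give the mean and SD. Fads1 lies between 208 and 247 CPM in NC and between 123 and 151 CPM in SEA, and Per3 between 28.2 and 32.8 CPM in NC and between 39.7 and 45.0 CPM in SEA.

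Among genes induced by glucocorticoids, the adrenal stress hormones, the direction of the list rested on SEA 3. Of 17 tested members, 3 were higher and none lower at the unadjusted threshold, with a median log2 fold change of 0.33 and 14 of the 17 above 0. The background was 1.14% of genes higher, and 48.2% of all genes tested lay above 0. Without SEA 3, 6 of the 17 were above 0, the median was -0.09 and 2 were higher at the unadjusted threshold. Zbtb16, a transcription factor induced by the glucocorticoid receptor, had 5.12, 3.73 and 6.59 CPM in NC and 9.08, 12.4 and 8.87 CPM in SEA, a log2 fold change of 0.98 ± 0.25 without overlap. Sult1a1, a sulfotransferase, had 6.92, 7.01 and 6.78 CPM in NC and 10.6, 12.7 and 12.8 CPM in SEA, a log2 fold change of 0.80 ± 0.13 with a DESeq2 adjusted p of 0.0389. Map3k6, a stress-activated kinase, had a log2 fold change of 1.12 ± 0.37. Fkbp5, a co-chaperone of the receptor and the most used marker of its activity, had 77.1, 51.1 and 60.0 CPM in NC and 67.7, 85.9 and 52.8 CPM in SEA, a log2 fold change of 0.13 ± 0.21 with overlapping groups. Its sign turned to -0.18 without both choroid plexus libraries. SEA 3 was the highest library for most members of the list. It was far above the others for Sgk1, a kinase of the same set, with 480 CPM against 52.6 to 201 CPM in the other 5 libraries, and for Pdk4, with 41.2 CPM against 2.59 to 12.4 CPM. When all 4 CEA groups were fitted together, no member of this list passed the unadjusted threshold.

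None of the tested neuropeptide and receptor genes for which the central amygdala is known passed the unadjusted threshold, which does not show that they were alike. In the list of 22 central amygdala and GABA neuron genes no member passed the unadjusted threshold, with a median log2 fold change of 0.08. The 7 opioid genes and the 24 tested genes of other neuropeptides and receptors had none either. Nor had the 8 tested genes of the corticotropin-releasing hormone system and corticosteroid receptors. Summed levels of this last list were 301, 280 and 275 CPM in NC and 310, 308 and 326 CPM in SEA. Those of the other neuropeptides and receptors were 974, 1024 and 1081 CPM in NC and 863, 875 and 848 CPM in SEA. Neither of these sums overlapped between groups, while the opioid sum did. Crh, the hormone that starts the stress axis, had 1.97, 0.679 and 1.08 CPM in NC and 2.98, 1.7 and 0.602 CPM in SEA, a log2 fold change of 0.51 ± 0.61. Penk, the enkephalin precursor, had 1089, 653 and 734 CPM in NC and 625, 895 and 328 CPM in SEA, a log2 fold change of -0.42 ± 0.37. NC 1 and SEA 2 were the highest libraries and SEA 3 the lowest both for Penk and for the striatal marker sum. Pdyn, the dynorphin precursor, was at -0.11 ± 0.38, Tac1, the substance P precursor, at -0.27 ± 0.43, Sst at 0.05 ± 0.29 and Nts at -0.21 ± 0.44. Oprm1, the mu opioid receptor, had 4.27, 10.7 and 10.4 CPM in NC and 6.46, 5.52 and 9.10 CPM in SEA, a log2 fold change of -0.27 ± 0.37. Crhr1, the main receptor of Crh, was at 0.23 ± 0.24 and Prkcd at -0.57 ± 1.02. The signs of Crh, Pdyn, Oprm1, Prkcd, Sst, Nts and Tac1 turned under at least 1 alternative. Nr3c1, the glucocorticoid receptor, was not analysed here.

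Of the 16 GABA receptor genes none passed the unadjusted threshold, and of 22 glutamate receptor genes 1 did in each direction. Grin2d, a subunit of the NMDA receptor, had 27.7, 20.4 and 19.6 CPM in NC and 32.7, 27.1 and 34.3 CPM in SEA, a log2 fold change of 0.47 ± 0.16. Grin2a, another subunit, had 38.7, 35.5 and 61.6 CPM in NC and 29.3, 34.1 and 28.8 CPM in SEA, a log2 fold change of -0.56 ± 0.21 in which NC 3 stood above the other 5 libraries. Without NC 3 it was -0.27.

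Among immune genes, of 17 tested genes of the acute phase and cytokine list, 2 were higher in SEA and none lower, with a median log2 fold change of 0.00. Over all genes tested, 1.14% were higher and 48.2% lay above 0. Lrg1, a glycoprotein of the acute phase, had 1.24, 2.66 and 2.53 CPM in NC and 4.66, 5.28 and 4.66 CPM in SEA, a log2 fold change of 1.18 ± 0.31 without overlap. Socs3, an inhibitor of cytokine signalling, had a log2 fold change of 1.05 ± 0.42. The interferon list had a median of 0.63 over 16 genes with 15 above 0, or 0.25 with 14 above 0 without SEA 2, and 1 member was higher at the unadjusted threshold. That gene, Ifit3, had 1.86, 2.88 and 2.47 CPM in NC and 4.35, 12 and 3.38 CPM in SEA, a log2 fold change of 1.46 ± 0.50. SEA 2 was the highest library for Ifit3, and also for Irf7, the interferon regulatory factor, with 25.1 CPM against 2.28 to 11.1 CPM in the other 5 libraries. Of 18 tested RT1 genes, the rat histocompatibility genes, RT1-CE7 alone passed the unadjusted threshold, with a log2 fold change of 0.68 ± 0.28 and overlapping groups. RT1-S3 had 34.0, 26.7 and 27.2 CPM in NC and 40.2, 39.8 and 13.9 CPM in SEA, and RT1-T24-4 had 18.9, 15.7 and 20.7 CPM in NC and 33.4, 21.6 and 4.96 CPM in SEA. SEA 3 was the lowest library for both, as it was the highest for LOC103690108. RT1-M3-1 was at 0.06 ± 0.17. Reads of these near-identical genes may have been split between copies, so their values are uncertain.

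Several genes of dividing cells had lower values in SEA, endothelial genes lay on both sides of 0, and no list of mitosis genes was tested. Mki67, a protein of dividing cells, had 4.5, 4.19 and 4.5 CPM in NC and 2.18, 2.11 and 2.41 CPM in SEA, a log2 fold change of -0.98 ± 0.18. Top2a, Kif11 and Ckap2l, genes of mitosis chosen after their values were seen, had log2 fold changes of -1.44 ± 0.54, -1.08 ± 0.34 and -1.86 ± 0.38, and Pbk, Cenpf and Cdk1, chosen in the same way, were at -1.58 ± 0.39, -2.18 ± 0.83 and -0.82 ± 0.56, with overlapping groups for Cdk1. Ccna2, a cyclin chosen in the same way, had 23, 20 and 15 counts in NC and 0, 2 and 3 in SEA. Ccnb1, a mitotic cyclin also chosen after its values were seen, was at 0.05 ± 0.24 with overlapping groups. The counts of most of these genes are low. Pcdh12, a protocadherin of endothelial cells, had 5.51, 3.28 and 3.48 CPM in NC and 1.74, 1.53 and 0.902 CPM in SEA, a log2 fold change of -1.54 ± 0.33. Kdr, the receptor for vascular endothelial growth factor, and Bcl6b, both chosen after their values were seen, were at -0.77 ± 0.18 and -0.94 ± 0.23. Vwf, the von Willebrand factor gene of endothelium and likewise chosen after its values were seen, lay the other way, with 84, 103 and 109 CPM in NC and 122, 160 and 122 CPM in SEA, a log2 fold change of 0.44 ± 0.15 without overlap. The list of vessel markers held 9 tested genes with none at the unadjusted threshold, and its summed level was 428 to 449 CPM in NC and 372 to 448 CPM in SEA.

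The remaining genes that the rule named were of mixed function. Nat8f3, an acetyltransferase family member, had 8.94, 10.2 and 8.80 CPM in NC and 15.2, 18.5 and 16.3 CPM in SEA, a log2 fold change of 0.84 ± 0.13 with a DESeq2 adjusted p of 0.0064. Ch25h, which makes 25-hydroxycholesterol, had 1.41, 1.81 and 1.96 CPM in NC and 4.41, 3.93 and 3.46 CPM in SEA, a log2 fold change of 1.19 ± 0.23. Slc7a1, a transporter of cationic amino acids, had 82.6, 75.6 and 90.6 CPM in NC and 50.5, 58.8 and 48.2 CPM in SEA, a log2 fold change of -0.66 ± 0.11. For each of these 3 genes the groups did not overlap. Slc27a1, a fatty acid transporter, was at 0.37 ± 0.08, the collagen gene Col27a1 at 0.62 ± 0.13 and Agbl3, a carboxypeptidase, at 0.72 ± 0.12. LOC691918 (ENSRNOG00000046745, since 2 rows share the symbol), listed as similar to a centrosomal protein, was at -1.83 ± 0.29 with 31, 37 and 35 counts in NC and 11, 8 and 7 in SEA. Of the snoRNA genes of family RF00405, ENSRNOG00000059045 was at -1.96 ± 0.34 and ENSRNOG00000060982 at 1.09 ± 0.25, and reads may have been split among their copies.

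LOC100910446, a syntaxin-7-like gene, had the smallest unadjusted p, 0.000106. Its counts were 24, 20 and 24 in NC and 497, 332 and 115 in SEA, a log2 fold change of 3.88 ± 0.49. High and low libraries of this gene occurred in the other groups as well. The CEA HT libraries had 326, 6 and 16 counts, the CEA EA libraries 296, 39 and 28, the PVN NC libraries 313, 381 and 35, and the PVN SEA libraries 38, 334 and 10. The PVN HT libraries had 29, 256 and 27 counts and the PVN EA libraries 9, 21 and 11. Libraries of the same group thus differed widely in CEA HT, CEA EA, PVN NC, PVN HT and PVN SEA, while CEA NC and PVN EA were low throughout and CEA SEA was high throughout. LOC103689941, an inositol phosphatase-like gene, had 17, 36 and 26 counts in NC and 91, 57 and 135 in SEA, a log2 fold change of 2.03 ± 0.47, and its CEA HT counts were 40, 39 and 187. A copy gene of this kind can take reads from, or lose reads to, its near-identical partner.

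**Figure D4:**
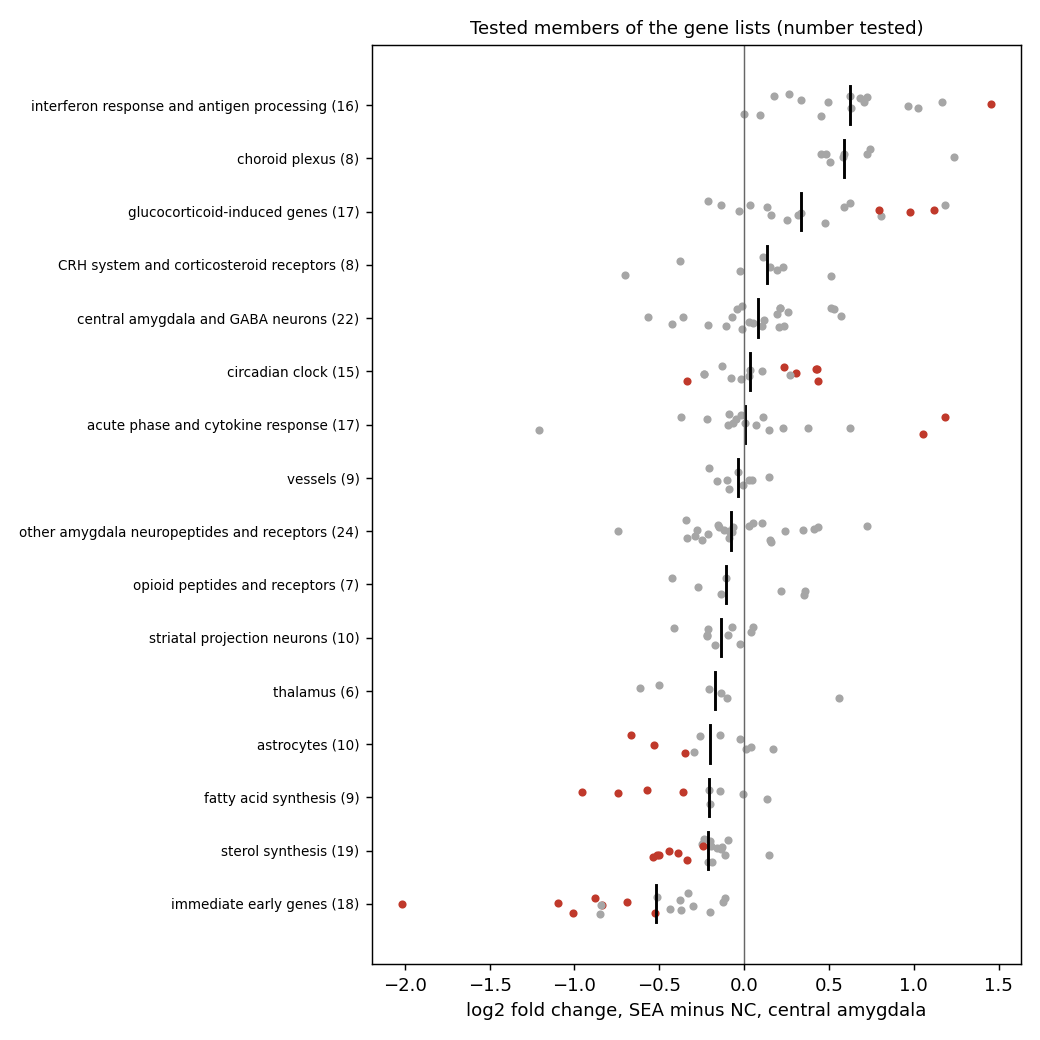
Log2 fold change of SEA minus NC in the central amygdala for every tested member of 16 gene lists, with the number tested in parentheses; red points have an unadjusted p under 0.05, grey points do not, and black bars mark medians. Immediate early genes have the lowest median, -0.52, and the interferon list the highest, 0.63.

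The PVN gave the same contrast in separate libraries, which need not be independent of the CEA libraries. The labels tie no library to an animal, and SEA 3 alone of the SEA libraries had high LOC103690108 counts in both regions. The overlap and the interaction below take the regions as independent, which was not tested. There SEA against NC called no gene of 16673 by edgeR's adjusted p, and 1044 genes were higher (6.26%) and 1074 lower (6.44%) at an unadjusted p under 0.05. Of 16026 genes tested in both regions, 388 passed that threshold in the CEA and 2075 in the PVN. The 93 genes that passed in both were 24.0% of the CEA genes and 4.48% of the PVN genes, against 12.9% of all shared genes that passed in the PVN. Of the 93, 34 were higher in both regions, 47 were lower in both and 12 had opposite signs. The region difference, tested as an interaction, called no gene (0% of 17265), and 1008 genes had an unadjusted p under 0.05 (5.84%). By DESeq2 it also called none. Without PVN NC 2 the interaction called 1240 genes, so this count depends on that library.

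Fads1 was lower in both regions, with log2 fold changes of -0.74 ± 0.11 in the CEA and -0.46 ± 0.12 in the PVN, and so was Nr4a1, with -1.10 ± 0.21 and -0.92 ± 0.23. Fads2 was at -0.57 ± 0.10 in the CEA and at -0.14 ± 0.12 with overlapping groups in the PVN, with an unadjusted interaction p of 0.0225. Per3 had 0.43 ± 0.10 and 0.42 ± 0.14. Zbtb16 had 0.98 ± 0.25 and 1.43 ± 0.29, Lrg1 1.18 ± 0.31 and 1.94 ± 0.28, and Nat8f3 0.84 ± 0.13 and 1.21 ± 0.20. The groups did not overlap in either region for Fads1, Nr4a1, Per3, Zbtb16, Lrg1 or Nat8f3. Egr2 was at -2.02 ± 0.39 in the CEA and at 0.17 ± 0.32 in the PVN, a difference of -2.19 with an unadjusted interaction p of 0.00158. Dusp5 was at -1.07 ± 0.22 and -0.03 ± 0.25, Agbl3 at 0.72 ± 0.12 and -0.12 ± 0.17, and Slc7a1 at -0.66 ± 0.11 and -0.14 ± 0.09, with unadjusted interaction p-values of 0.00717, 0.00247 and 0.00451. None of these differences passed the adjustment over all genes. In the PVN, 4 of 18 immediate early genes were lower and 1 was higher at the unadjusted threshold, with a median of -0.23. Of 15 clock genes 9 were higher and 1 lower there, with a median of 0.31, and of 19 sterol genes 5 were lower, with a median of 0.00. Of 9 fatty acid genes 1 was lower, with a median of -0.03.

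**Figure D5:**
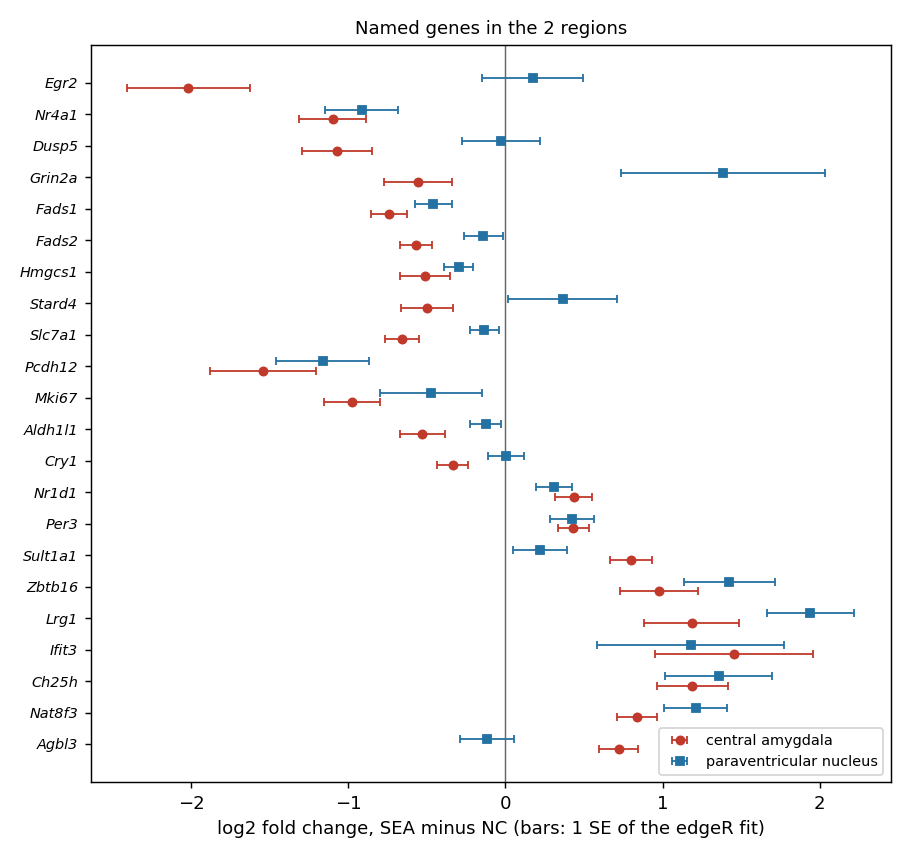
Log2 fold change of SEA minus NC for 22 named genes in the central amygdala (red circles) and the paraventricular nucleus (blue squares), with bars of 1 SE from the edgeR fit. Egr2 lies at -2.02 in the central amygdala and 0.17 in the paraventricular nucleus, while Nr4a1, Fads1 and Per3 lie on the same side of 0 in both.

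The other operated groups share the NC libraries with this comparison, so their values are set side by side only. In the EA group, the library CEA EA 2 stood apart with 3.8% of its counts from mitochondrial genes, against 10.1% to 14.4% in the other CEA libraries, and its part in the EA values was not tested. The study left a CEA EA library out of its network analysis without naming it in the sources used here. Against NC, Egr2 was at -2.02 in SEA, -1.71 in HT and -2.38 in EA. Among further genes picked from those described above, Fads1 was at -0.74, -0.60 and -0.78, Fads2 at -0.57, -0.72 and -0.76, and Hmgcs1 at -0.51, -0.67 and -0.66 in the same order. Nr4a1 was at -1.10, -1.23 and -0.76, and Per3 at 0.43, 0.43 and 0.41. The HT value of Per3 had an SE of 0.33, with HT libraries from 23.3 to 62.7 CPM. SEA against HT, which does not use NC, gave unadjusted edgeR p-values of 0.404 for Egr2, 0.428 for Fads1, 0.468 for Nr4a1 and 0.999 for Per3, with log2 fold changes of -0.31 ± 0.35, -0.15 ± 0.18, 0.13 ± 0.17 and 0.00 ± 0.32, which does not show that SEA and HT were alike. Other genes described above lay further apart, all without adjustment over genes. Fos, at -1.69 in HT and -1.50 in EA against NC, had a log2 fold change of SEA minus HT of 0.84 ± 0.35 with an unadjusted p of 0.0457. For SEA minus HT, Aldh1l1 was at -0.58 ± 0.18 and Grin2d at 0.54 ± 0.15. Sult1a1 had 18.0 to 87.5 CPM in HT against 10.6 to 12.8 CPM in SEA, a log2 fold change of SEA minus HT of -1.89 with an unadjusted p of 0.00988. LOC691918 was at -1.83 in SEA, -0.45 in HT and 0.17 in EA against NC, and the snoRNA gene ENSRNOG00000059045 was at -1.96, -0.01 and -0.86. SEA minus HT was -1.39 ± 0.47 and -1.96 ± 0.56 for them, with unadjusted p-values of 0.0201 and 0.00913.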

How the data were processed

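Strand-specific mRNA libraries of rat CEA tissue were read on Illumina instruments, and the deposited table holds raw read counts per gene for 24 libraries, of which 6 enter the main comparison. Per the labels and the study's methods, the authors mapped reads with HISAT2 and made the counts with featureCounts. The methods name the rat assembly mRatBN7.2 and the submitters' processing notes list a human build. The table names no build, and its highest gene end on chromosome 1, 282724300, exceeds the length of chromosome 1 in mRatBN7.2, so its coordinates are not printed. The table holds 35032 genes and assembled transcripts.

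Groups were taken from the labels. Counts were filtered with edgeR's filterByExpr, scaled by trimmed mean factors and tested with edgeR 4.0.16 (glmQLFit, glmQLFTest) in R 4.3.3 with Benjamini-Hochberg adjustment at 0.05; SD and SE are over 3 libraries a group. DESeq2 1.42.0, the study's tool, served as the alternative. The SEA effect of CEA and PVN was compared as an interaction. The test was run on simulated counts in which 200 genes changed 4-fold. It called 191 genes, of which 173 had been changed and 18 had not. Counts were drawn independently for each library, so shared shifts such as those of choroid plexus transcripts were not covered, nor were smaller changes. Named genes were those called (none), up to 10 a direction with the smallest unadjusted p, no overlap and a mean of at least 1 CPM, a panel of amygdala genes, up to 2 a direction from each list at the unadjusted threshold, and LOC103690108, LOC100364500 and the 3 RT1 genes of highest mean. The members and lists were chosen with earlier results of these data known. Promoter and microRNA sequences came from RefSeq tables of build GRCr8. Alternatives covered scaling, filters, fits, the replicate block and each library left out. The floor of 3 counts covers counting error only.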

Additional observations from a re-analysis of the deposited data

Results flagged for a closer look

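Grin2a, an NMDA receptor subunit, was lower in every CEA SEA library than in every CEA NC library and higher in every PVN SEA library than in every PVN NC library. The log2 fold change was -0.56 ± 0.21 in the CEA and 1.38 ± 0.65 in the PVN. In the PVN the NC libraries spread from 2.37 to 18.7 CPM (mean 8.33 ± 9, SD, n = 3), and the SEA libraries lay between 20.2 and 23.2 CPM. Without CEA NC 3 the CEA value was -0.27. The CEA effect minus the PVN effect was -1.94, with an unadjusted interaction p of 0.0243 by edgeR, which did not pass the adjustment over all genes. It was the only named gene with groups separated in opposite directions in the 2 regions.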

How the results depend on the processing

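No gene was called under any alternative edgeR fit except without SEA 3, where LOC100910446 was called (0 to 1 called when each library was left out in turn). DESeq2 called 11. The 406 genes at an unadjusted p under 0.05 became 285 to 735 with 1 library left out, highest without NC 1, 253 with all 4 CEA groups in one fit, 745 without both choroid plexus libraries and 1043 with the striatal covariate. These last 2 alternatives, and the list counts and directions with libraries left out, were chosen after seeing the data. The 1125 genes without overlap in SEA against NC, CEA, became 2162 to 3252 with 1 library left out and 5683 without both choroid plexus libraries, where fewer libraries have to separate. The region difference ranged from 0 to 1240 genes, all of the latter without PVN NC 2. The cause of these shifts was not tested.

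In their deviations from the group mean, same-numbered NC and SEA libraries correlated at 0.15, -0.21 and 0.23. Not every library correlated best with its own number. The main fit did not pair the samples by number, and a processing order shared by number was not tested. With the replicate block 0 genes were called and 376 passed the unadjusted threshold, and the sign turned for RT1-S3 (-0.024) and RT1-T24-4 (-0.15).

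Of 765 values for 45 named genes under 17 settings, 728 kept direction and side of the threshold, 11 passed it newly and 26 in 11 genes changed sign. Without both choroid plexus libraries the values were -0.18 for Fkbp5, 0.094 for Oprm1, 0.24 for Prkcd, -0.23 for Sst, -0.16 for RT1-S3 and -0.027 for RT1-T24-4. With the striatal covariate they were 0.085 for Pdyn and -0.013 for RT1-M3-1. With each library left out in turn the log2 fold changes ranged from -0.29 to 0.27 for Pdyn, -0.052 to 0.31 for Fkbp5, -0.087 to 1.02 for Crh, -0.71 to 0.063 for Tac1, -0.66 to 0.22 for Nts, -0.14 to 0.29 for Sst, -0.12 to 0.45 for RT1-S3, -0.46 to 0.58 for RT1-T24-4 and -0.017 to 0.20 for RT1-M3-1. Depth limits the genes of few counts, such as Mir132, Mir212 and Ckap2l.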
